A study of Homo sapiens with 13 samples.

Results

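Of 1018 strong N6-methyladenosine (m6A) summits in control MDA-MB-231 cells, 789 had a summit at nearly the same position in cells depleted of VIRMA, and these 789 kept strong summits are described here. A summit is the position of highest antibody enrichment within a peak. It was taken as strong where its -log10 score in the non-targeting control (NTC) list was 15 or more, and as kept where the list of the VIRMA-depleted cells (KD) held a summit on the same chromosome within 100 nt. The whole NTC list held 8377 summits and the KD list 5923, and the other 229 strong summits had no KD summit within that distance. The members were chosen by the NTC score and by the distance to a KD summit, so these values are given below as a description and were not tested.

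MDA-MB-231 is an established line of human triple-negative breast cancer. Lines at passage 2 had been made stable by lentiviral infection and selection, either with NTC or against VIRMA (KIAA1429). Sites of m6A were mapped in NTC and KD cells by MeRIP-seq, in which mRNA from 300 µg of total RNA was fragmented to between 100 and 200 nt and pulled down with a polyclonal antibody against m6A, after 10% was set aside as input. There was 1 pull-down and 1 input library per condition, so no MeRIP value carries a replicate error. RNA-seq was made from other depleted lines, labelled VIRMA knockout (KO) in versions sg1 and sg2, with 3 libraries each beside 3 of NTC. The labels do not state whether a line was 1 clone, or which sequence the KD line used.

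m6A is placed on nascent mRNA by a nuclear complex with METTL3 as its catalytic subunit, and VIRMA is the large scaffold subunit that ties the enzyme to particular regions of the transcript. The mark is known to gather in long internal exons and around the stop codon and the start of the 3′ untranslated region. Reader proteins such as the YTHDF and IGF2BP families bind marked mRNA and act on its decay, stability or translation.

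The sequence under a summit is shown for 2 of the 3 members that had an m6A consensus word within 15 nt and lay in a stretch for which sequence was at hand, to show how closely a summit can sit to a possible methylated A. The consensus was searched on the strand of the host gene as the 18 words of 5 letters that have A, G or T first, then A or G, then AC, then A, C or T. The word is in capitals, 5′ to 3′, and the sequences are from RefSeq (GRCh38.p14), both on the plus strand.
CDYL (chr6:4892173-4892202): gccctgagaaactGGACCccgtcgagcagg
SNX33 (chr15:75648903-75648932): gtttctgggccatGGACAttgctttgaaga

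In CDYL, a chromodomain corepressor, the A of GGACC lay 2 nt downstream of an NTC summit with a score of 23.1. In SNX33, a sorting nexin, the A of GGACA lay 13 nt downstream of an NTC summit with a score of 17.4, and the KD summit was 24 nt further along the chromosome than the NTC summit. Both stretches come from the table of windows around RefSeq start sites, which covered 6 of the 789 members, 5 of them with the full 50 nt on each side that were searched. A consensus word was found in 5 of these 6, GGAC in 4 and GGACT in 1. Of all 35116 start-site windows of the same length, 74.1% held a consensus word, 30.8% GGAC and 8.94% GGACT, and the words overlap, since GGACT is both a GGAC and a consensus word. Such a match is a description of letters, and 6 windows are too few to describe the members in general.

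The NTC and KD positions of most kept summits lay at most 50 nt apart. The median distance from the NTC to the KD summit was 11 nt (quartiles 3 and 31 nt), far below the limit of 100 nt. The position was identical for 56 members (7.10%), and it differed by at most 5 nt for 292 (37.0%), by at most 10 nt for 385 (48.8%) and by at most 50 nt for 679 (86.1%). The remaining 110 (13.9%) were 51 to 100 nt apart. No member had more than 1 KD summit within reach, and no KD summit served more than 1 member. The fragments were 100 to 200 nt long.

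**Figure D1:**
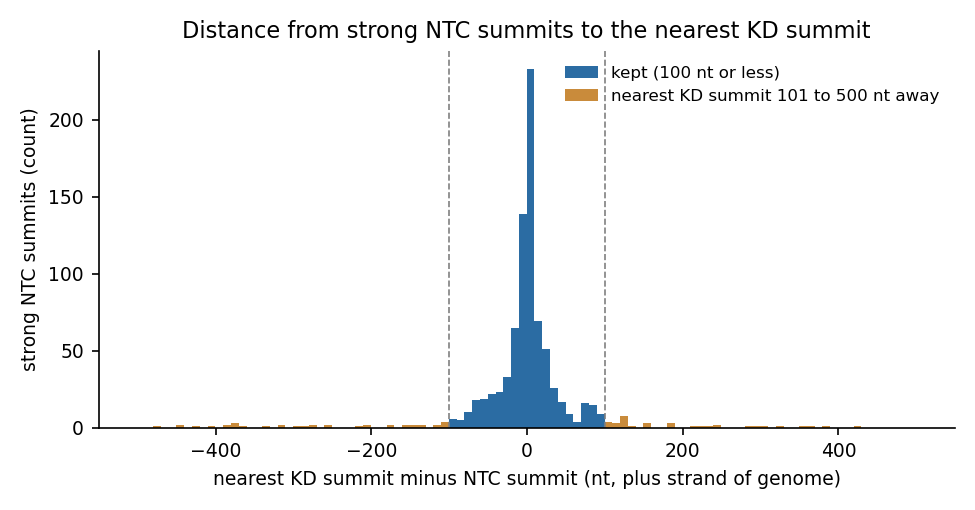
Histogram of strong NTC summits (count) by the position of the nearest KD summit minus that of the NTC summit in nt along the plus strand of the genome, in blue for kept summits and in orange for those farther than the dashed limits of 100 nt. The kept summits gather close to 0, and 110 of 789 lie between 51 and 100 nt.

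The median distances were shorter at higher scores, but across the 789 members the relation of NTC score and distance was weak (Spearman -0.125). Members scored 15 to 20 in NTC (n = 536) had a median distance of 12 nt, those scored 20 to 25 (n = 184) of 11 nt, those scored 25 to 30 (n = 53) of 7 nt and the 16 scored 30 or more of 3 nt. The distances of those 16 ran from 0 to 99 nt, with quartiles of 1 and 23 nt. Weak NTC summits, below 15, that had a KD summit within 100 nt (n = 3151) had a median of 15 nt. The direction along the transcript could be given for the 606 members whose host gene had a strand in the RefSeq table. Of these, 255 (42.1%) had the KD summit on the 5′ side, 311 (51.3%) on the 3′ side and 40 (6.60%) at the same position, with a median shift of 1 nt towards the 3′ end (quartiles -10 and 12 nt).

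The share of NTC summits found again in KD was higher at higher NTC scores. It was 42.8% below a score of 15 (3151 of 7359) and 77.5% at 15 or more (789 of 1018, exact binomial 95% interval 74.8 to 80.0%). Within the strong summits it was 75.3% from 15 to 20 (interval 71.9 to 78.4%), 80.7% from 20 to 25 (74.97 to 85.6%), 86.9% from 25 to 30 (75.8 to 94.2%) and 94.1% at 30 or more (16 of 17, 71.3 to 99.9%). The intervals cover counting error only, with summits as the units and 1 library per condition, and they test nothing, since the score and the distance chose the members. Of the 229 strong summits not found again, 36 had their nearest KD summit up to 200 nt away and 56 beyond that and up to 1000 nt away. For the other 137, 13.5% of all strong summits, it was farther or there was none on that sequence. The KD list was shorter and the depth of these libraries is unknown, so a summit missing from it was not detected there at that depth.

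The scores of members reached from the limit of 15 to 40.0 in the NTC list, with a median of 18.3, and their KD summits scored from 1.36 to 36.8, with a median of 11.4 (quartiles 8.58 and 15.6). Each score belongs to its own list, made from libraries of unknown depth, so these medians show no change in methylation. Within the KD list, the members' summits stood high, since the median of all 5923 KD summits was 6.79. They made up 62 of the 100 highest KD summits and 212 of the 401 KD summits of 15 or more (52.9%). These 212 were 26.9% of the members, while 45 members (5.70%) had a KD score under 5. Across the 789 members the NTC and KD scores were loosely related (Pearson 0.42, Spearman 0.31); the points share transcripts of the same cell line, and no test was made.

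**Figure D2:**
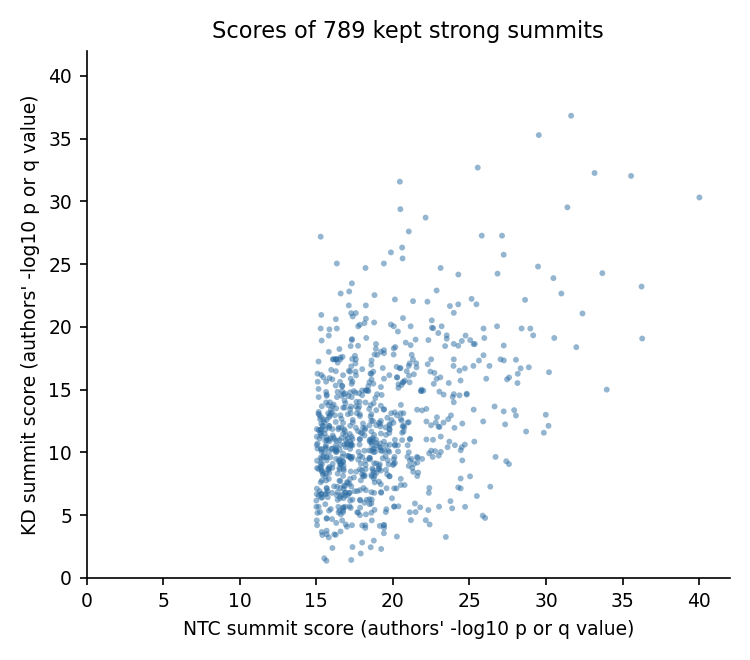
KD score against NTC score, both -log10 scores of the authors' lists, for the 789 kept strong summits. NTC scores start at the limit of 15, and KD scores reach from 1.36 to 36.8 with a median of 11.4. The lists were scored separately, so the axes are not on 1 scale.

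The highest members lay in genes of varied function. The summit with the highest NTC score was in SPSB1, an adaptor of a ubiquitin ligase, at position 9367474 of chromosome 1 (hg38), with 40.0 in NTC and 30.3 in KD, 23 nt apart. In CGRRF1, which encodes a RING finger protein, the summit scored 36.3 in NTC and 19.1 in KD and lay 1094 nt from the end of the gene. CELSR1, a cadherin of planar cell polarity, had 36.2 and 23.2 with the positions 3 nt apart, and MMP17, a membrane-anchored matrix metalloproteinase, had 35.6 and 32.0. These summits were therefore near the top of both lists.

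RAB40C, a RAB GTPase with a SOCS box, held a summit of 34.0 in NTC and 14.998 in KD, 325 nt from the gene's end. The zinc finger genes ZNF629 (33.7 and 24.3) and ZNF837 (32.0 and 18.4) and the polyglutamine protein gene ATXN1 (33.2 and 32.3) had summits at most 4 nt apart. PAG1, a membrane adaptor that binds the kinase CSK, had 32.4 and 21.1 with the positions 1 nt apart. PLEKHF1, an endosomal and lysosomal adaptor, was close to the distance limit: its scores were 31.6 and 36.8, but the positions differed by 99 nt. MTCL1, which crosslinks microtubules, had 31.4 and 29.5. In MYLK, the myosin light chain kinase, the summit (31.0 and 22.7) lay 124004 nt before the end of the gene.

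At the limits of the rule, the lowest members had scores of 15.0006 in TIAM1 and in POMGNT2 and 15.03 in FBXO42, and the nearest summits left out had 14.98 in FAM171A1 and LRATD2 and 14.97 on chromosome 7 in no coding gene. By distance, the last members were in A4GALT (100 nt), PLEKHF1 (99 nt) and ETV3 (99 nt). The first strong summits left out were in B3GNT9, 1 nt past the limit, in the overlapping genes CDC20B and GPX8 (104 nt) and in NCEH1 (105 nt).

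Nearly all kept strong summits lay within genes. Of the 789, 712 (90.2%) fell in the span of a single protein-coding gene, 44 (5.58%) in overlapping coding genes, 13 in non-coding genes only and 5 in no gene span, and 15 were on alternate or unplaced sequences. The share in a single coding gene was 89.1% for the strong summits not kept and 84.9% for all NTC summits. Places are genomic, with introns counted, because exons, stop codons and untranslated regions were not analysed here.

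Along the gene, members leaned to the 3′ end. Of the 606 with a known direction, 252 (41.6%) lay in the last 10% of the gene span and 39 (6.44%) in the first 10%, with a median distance to the gene's end of 3914.5 nt. For all NTC summits the shares were 38.9% and 8.55%, and for strong summits not kept 37.2% (61 of 164) and 13.4% (22 of 164). The share of strong summits found again was lowest next to the gene start. Within 200 nt of the start, 7 of 19 were kept (36.8%, exact binomial 95% interval 16.3 to 61.6%), farther and up to 1000 nt 25 of 34 (73.5%, 55.6 to 87.1%), and beyond 1000 nt 574 of 717 (80.1%, 76.9 to 82.9%). Summits of 1 gene share their transcript and there is 1 library per condition, so these shares are a description and their difference was not tested. By distance to the gene's end, 77.1% were kept within 1000 nt (interval 67.9 to 84.8%), 82.5% beyond 1000 and up to 5000 nt (77.9 to 86.6%) and 75.7% farther away (70.9 to 80.1%).

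**Figure D3:**
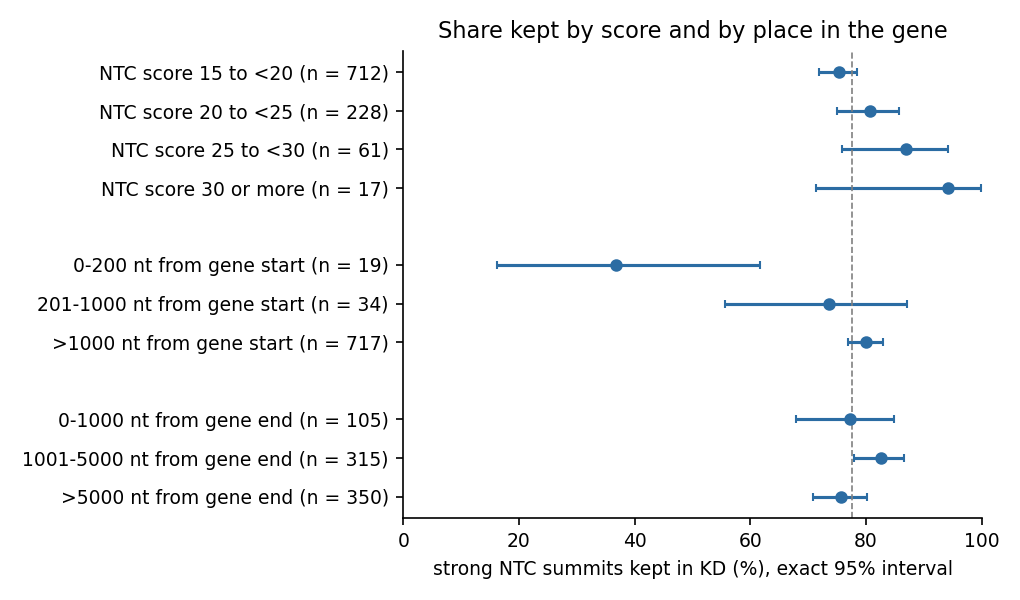
Percent of strong NTC summits kept in KD, with exact binomial 95% intervals, by NTC score and by distance from the start and the end of the gene; the dashed line marks the 77.5% of all strong summits. The share is 75.3% at scores from 15 to 20, 94.1% at 30 or more, and 36.8% within 200 nt of the gene start.

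**Figure D4:**
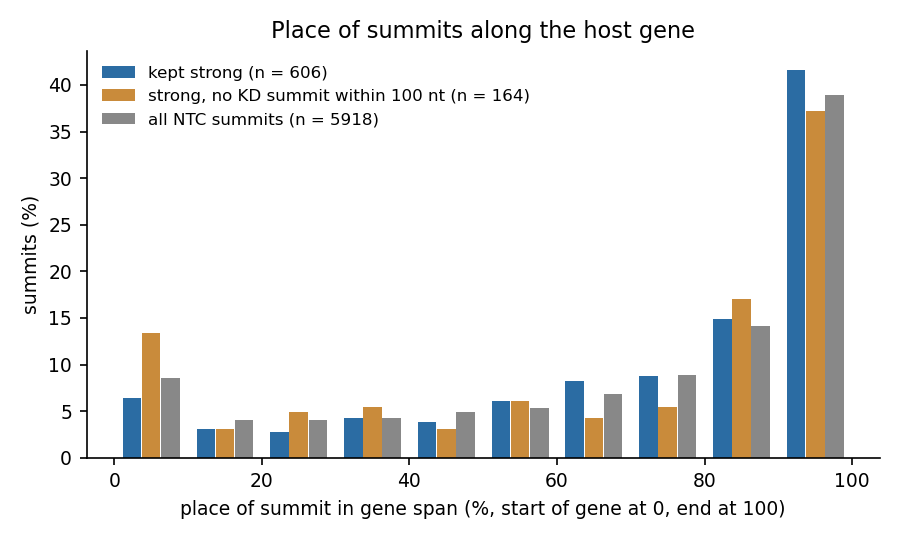
Percent of kept strong, not kept strong and all NTC summits (bars) by place in the gene span, in steps of 10% from the start to the end of the gene, introns included. Kept summits had 6.44% in the first step, against 13.4% of those not kept, and 41.6% in the last.

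The 712 members in a single coding gene fell in 671 host genes, which is 14.6% of the 4582 coding genes with any NTC summit. Of these hosts 633 held 1 member, 35 held 2 and 3 held 3, and the 41 gaps between neighbouring members of a gene ran from 442 to 249408 nt with a median of 4555 nt. For 278 hosts (41.4%) the member was their single NTC summit. Kept and missing summits also occurred in the same gene: 25 hosts (3.73%) held a strong summit not found in KD and 232 (34.6%) a weak one.

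HS6ST1, a heparan sulfate 6-O-sulfotransferase, held 3 members within the last 2892 nt of the gene, and these were all of its NTC summits. Their NTC and KD scores were 17.7 and 18.5 nearest the gene's end, 15.6 and 13.98 in the middle, and 29.98 and 12.99 farthest from it. LATS2, a kinase of the Hippo pathway, held 3 members and 6 NTC summits, of which 5 were kept. A pair of its members lay 442 nt apart, at 20988237 and 20988679 of chromosome 13 (20.7 and 16.9 in NTC), and the third, at 21045958, scored 25.5 in NTC and 21.8 in KD.

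SH3BP4, an endocytic adaptor, held 3 members among 5 NTC summits, of which these 3 were kept, with NTC scores of 16.3, 24.7 and 20.1 and KD scores of 25.05, 10.6 and 11.001. Among the genes with 2 members, RAB40C had a further one (22.9 in both lists) besides its top summit, and FBXW2, an F-box protein, had 29.5 and 16.3 in NTC, which were its only NTC summits. CDK13, a kinase of the elongating RNA polymerase, and CDK5RAP2, a centrosome protein, each combined a member above 28 with a lower one, 28.9 and 21.4 in CDK13 and 28.3 and 15.4 in CDK5RAP2. In LRRC14 the KD scores lay far apart, at 18.6 where the positions were identical and 1.94 where they were 95 nt apart.

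Gene lists of 18 kinds, 344 genes in all, were read for members. Of these genes 162 had an NTC summit and 40 (24.7% of the 162) held a kept strong summit, against 14.6% of all coding genes with an NTC summit. The lists were put together with earlier results of these data known, and a long or abundant transcript has more room for a summit, so nothing particular to a list is read from its share.

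Among chromatin regulators 12 of the 27 with an NTC summit held a member (44.4%). The highest were in ARID1A, a subunit of the SWI/SNF remodeller (23.8 in NTC, 12.9 in KD), and in the remodeller CHD8 (20.5 and 16.7). The acetyltransferase EP300 held 2 members with low KD scores, 18.8 and 6.77 for the first, and 16.8 and 5.60 for the second, which lay 2775 nt from the gene's end.

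Notch and Wnt genes with a member were 8 of 18 (44.4%). They included the Wnt receptor FZD5 (19.8 and 11.9), the ligase ZNRF3 that removes Wnt receptors (19.3 and 10.1), the Notch ligand JAG1 (17.3 and 7.28) and the receptor NOTCH1 (17.2 and 18.5, with positions 88 nt apart). In the TGF beta and BMP list 4 of 11 held a member, all of them SMAD genes. The inhibitory SMAD6 had 27.2 and 13.3 and the inhibitory SMAD7 15.7 and 6.90, and the signal-transducing SMAD3 had 21.9 and 14.9 and SMAD1 15.8 and 10.02. The Hippo list had 2 of 8, LATS2 and AMOTL2, a YAP-binding angiomotin (19.1 and 8.91).

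Genes of the m6A machinery held 3 members in all. In the writer complex 1 of the 5 genes with an NTC summit held one, the zinc finger subunit ZC3H13, with 18.6 in NTC and 4.57 in KD at 78 nt. Of the readers and erasers 2 of 6 did, IGF2BP3, which stabilises marked mRNA (20.5 and 7.39), and YTHDF1, a cytoplasmic reader (15.2 and 5.66). All 3 had KD scores well under the members' median of 11.4. Cleavage and polyadenylation factors had 2 of 7, WDR33, which binds the polyadenylation signal (28.1 and 15.5, 3 nt apart), and RBBP6 (19.4 and 13.4).

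Immediate early factors had 1 of 19 (5.26%), KLF4, a Krüppel-like factor, at the identical position (17.7 and 20.04). Receptor tyrosine kinases and ligands had 2 of 14, the insulin receptor substrate IRS1 (18.5 and 12.9) and IGF1R (17.9 and 6.22). NF-kB and cytokine genes had 2 of 10, SOCS6 (18.1 and 8.20) and SOCS5 (17.9 and 11.6). Lists with 1 member were ERK feedback with SPRED3, hypoxia with CA12, p53 and apoptosis with GADD45B (20.7 and 11.7, 414 nt from the gene's end), and cholesterol synthesis with SQLE. The hyaluronan and MYC network lists had 0 of 5 each, and the 28 ribosomal protein genes had no NTC summit in a single coding gene at all.

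RNA-seq of the KO lines gives a readout of the host genes that the rule did not use. It held 13975173 to 22051705 gene reads per library. VIRMA itself had normalized read counts of 2196, 2122 and 2689 in NTC, 1437, 1560 and 1613 with sg1, and 1566, 1990 and 2170 with sg2, so sg1 lay below NTC and sg2 overlapped with it. Of the line's markers VIM (18031 to 27031) and CD44 (3684 to 6558) were high and ESR1 and PGR at most 7.07, as a basal line has them. The further markers checked were CDH1, at most 19.7, and EPCAM, at 92.3 to 316 and highest in sg2-2 and sg2-3. 2 libraries stood apart from their groups: on the first principal component (53.3% of the variance) sg2-1 was at 29.6 against -68.5 and -77.2 for the other sg2 libraries, and on the second (17.3%) sg1-3 was at -34.6 against 2.58 and 2.25. In bulk RNA, fewer cells with a transcript and less of it per cell cannot be told apart.

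Host genes of kept strong summits were called about as often as genes in general. Of 671 hosts 667 were in the table and 664 passed the filter on low values, with NTC means from 3.62 to 20383 normalized reads. In the mean of both guides against NTC, limma called 30 hosts (4.52%), against 3.98% of all 15965 genes tested. Of these hosts 9 were higher (background 1.74%) and 21 lower (background 2.25%). The share was 4.98% among all tested genes with an NTC summit and 3.00% among hosts of strong summits not kept (6 of 200), so it was near the background in each.

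With sg2 limma called 75 hosts (11.3%), 30 of them higher and 45 lower, against 8.76% of all genes (4.19% higher and 4.57% lower) and 12.6% of genes with any NTC summit. With sg1 it called 0 of 664, against 0.194% of all genes (0.113% higher and 0.0814% lower), although 158 had an unadjusted p below 0.05 (4756 of all 15965 genes). Some hosts named below lay just above the threshold with sg1, such as KLF9 (limma adjusted p = 0.0564), SOX4 and PUS1 (0.0607 each). Others were far from it, such as HS6ST1 (0.729). With sg1 edgeR also called 0 hosts (0.169% of all genes) and DESeq2 71 (13.9% of all genes). With the replicate number as a block that pairs sg1 with sg2, limma called 34 hosts with sg1, 17 higher and 17 lower, against 7.5% of all genes. Without that block, no host was called with each guide in the same direction (all genes 0.15%), which follows from the 0 hosts called with sg1. All 6 KO libraries lay on 1 side of the 3 NTC libraries for 84 hosts (12.7%), 42 above and 42 below, against 10.5% of all genes tested.

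The median host moved in opposite directions with the guides, by a log2 fold change of 0.09 with sg1 and -0.09 with sg2, where the medians of all genes tested were -0.01 and 0.03. For genes with any NTC summit the medians were 0.01 with sg1 and -0.04 with sg2. Hosts of strong summits not kept had -0.04 with each guide. By library, the host medians against the NTC mean were 0.10, 0.12 and 0.05 for sg1, and 0.07, -0.15 and -0.21 for sg2-1, sg2-2 and sg2-3, so sg2-1 was on the side of sg1. The 3 NTC libraries serve both comparisons. Without sg2-1 limma called 252 hosts with sg1 (38.0%, all genes 41.03%), 321 with sg2 (48.3%, all genes 45.5%) and 170 in the mean of both guides (25.6%, all genes 22.0%). The counts thus turn on that library. The hosts' share, both directions together, was within a few percentage points of that of all genes in each fit, but the directions differed. Without sg2-1, 162 hosts were higher and 90 lower with sg1, where all genes had 2543 higher and 3913 lower. With sg2, 97 hosts were higher and 224 lower, against 4148 and 3007 of all genes. In the mean of both guides these numbers were 71 and 99, against 1606 and 1854. The difference in direction was not tested. Without another library the count in the mean of both guides was 1 without NTC-1 (all genes 0.189%), 4 without NTC-3 (0.453%), 14 without sg1-2 (1.44%), 16 without NTC-2 (1.83%), 17 without sg1-1 (1.49%), 17 without sg2-2 (2.06%), 22 without sg1-3 (2.84%) and 26 without sg2-3 (3.0%).

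Of the 21 hosts lower in the mean of both guides, SOX4 fell most among those named here. SOX4, a factor of development and epithelial plasticity, had 5108, 3568 and 4730 normalized reads in NTC, 2656, 2669 and 2753 with sg1, and 1308, 1518 and 1302 with sg2. All KO libraries lay below NTC, and sg2 lay below sg1. The log2 fold change was -1.20 ± 0.12 (SE), with a limma adjusted p of 0.00243. Its member, at position 21596651 of chromosome 6, scored 19.7 in NTC and 10.1 in KD, 1 nt apart.

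KLF9, a Krüppel-like factor that responds to glucocorticoids, had 932, 736 and 1003 in NTC, 464, 549 and 428 with sg1, and 364, 398 and 398 with sg2. All KO libraries lay below NTC, and it fell by 1.04 ± 0.13 (SE) on the log2 scale (limma adjusted p = 0.00510). Its member at 70413255 of chromosome 9 scored 18.2 in NTC and 24.7 in KD. CEBPD, a basic leucine zipper factor, had 445, 425 and 410 in NTC, 394, 320 and 318 with sg1 and 221, 177 and 195 with sg2. It fell by 0.71 (limma adjusted p = 0.0139), and the sg2 libraries lay below those of sg1.

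The other named falls were those of VWA1, H6PD and PEX11A. VWA1, an extracellular matrix protein, had 663, 557 and 729 in NTC, 503, 421 and 418 with sg1 and 216, 237 and 210 with sg2, a fall of 1.04 (limma adjusted p = 0.00416). H6PD, the hexose-6-phosphate dehydrogenase of the endoplasmic reticulum, had 6215, 5115 and 6135 in NTC, 4761, 4749 and 3975 with sg1 and 2574, 1710 and 1438 with sg2, a fall of 1.01 (limma adjusted p = 0.0143). PEX11A, which acts in peroxisome division, had 301, 274 and 278 in NTC, 142, 152 and 172 with sg1 and 98.1, 184 and 188 with sg2, a fall of 0.89 (limma adjusted p = 0.0420). In all 3 the groups did not overlap. In VWA1 and H6PD the sg2 libraries were also below those of sg1.

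Of the named rises, that of KANK1 was the largest. KANK1, an adaptor of the cell cortex, had 216, 226 and 181 in NTC, 305, 340 and 473 with sg1 and 370, 458 and 451 with sg2. It rose by 0.93 ± 0.16 (SE) on the log2 scale (limma adjusted p = 0.0142). PUS1, a pseudouridine synthase and so itself an RNA-modifying enzyme, had 218, 232 and 195 in NTC, 381, 344 and 315 with sg1, and 446, 392 and 394 with sg2. Its rise was 0.81 ± 0.11 (SE; limma adjusted p = 0.00694), and its member at 131941713 of chromosome 12 lay at the identical position in both lists, with 17.1 and 21.7.

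LRRC61 rose by 0.76 (limma adjusted p = 0.0305) from 208, 209 and 173 in NTC to between 272 and 507 in the KO libraries. CLMP, a junctional adhesion molecule, rose by 0.68 (limma adjusted p = 0.0187), HS3ST3B1, a heparan sulfate 3-O-sulfotransferase, by 0.65 (limma adjusted p = 0.0466) and AEN, a nuclease induced by p53, by 0.58 (limma adjusted p = 0.0158). In these 4 genes too every KO library lay above every NTC library. All 12 genes were chosen for passing the test without overlap, so the lack of overlap is no further evidence. Many calls were lost in fits without an NTC library, while the direction of change held. Of these 12 genes with SPSB1 and CA12, treated next, 1 of 14 (SOX4) passed without NTC-1 (all genes 0.189%). Without NTC-3 (0.453%) 3 passed (SOX4, VWA1 and KLF9), and without NTC-2 (1.83%) 9 passed. Those lost had limma adjusted p from 0.0501 to 0.211. Each of the 14 kept its direction over the alternatives, with log2 fold changes of 0.56 to 0.74 for CLMP and -1.15 to -0.89 for CA12. Without a KO library between 9 and 14 passed, and those lost were among HS3ST3B1, PEX11A, SPSB1, LRRC61 and CLMP, with adjusted p from 0.0531 to 0.107.

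**Figure D5:**
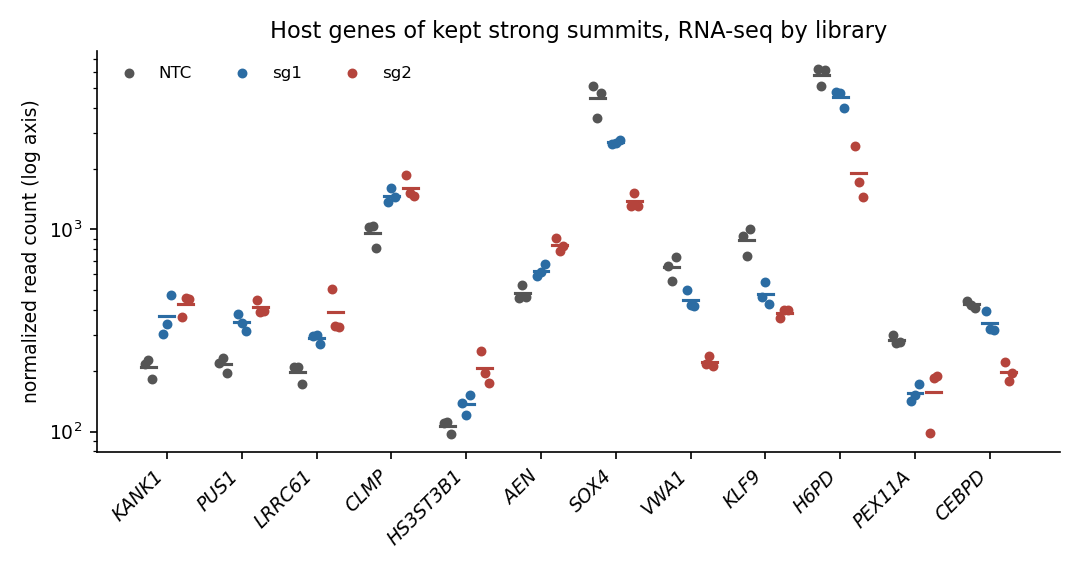
Normalized read counts, on a log axis, of host genes named from the mean of both guides, with 1 point per library for NTC, sg1 and sg2. SOX4 goes from 3568 to 5108 in NTC to 1302 to 1518 with sg2, and PUS1 from 195 to 232 in NTC to between 315 and 446 in the KO libraries.

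Among the 12 hosts with the highest summits, limma called 1 in the mean of both guides, SPSB1 (all genes 3.98%). It had 1347, 1368 and 1306 normalized reads in NTC, 920, 1000 and 871 with sg1, and 906, 1073 and 1092 with sg2, a fall of 0.46 ± 0.10 (SE; limma adjusted p = 0.0337). CELSR1 had 625, 592 and 645 in NTC, 830, 800 and 1245 with sg1 and 535, 297 and 306 with sg2, and MMP17 had 37.9 to 51.8 over all 9 libraries. Neither passed the test in the mean of both guides (limma adjusted p = 0.850 and 0.798, respectively).

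Of the 40 hosts on the gene lists, all tested, limma called 1 in the mean of both guides, CA12, a carbonic anhydrase induced by hypoxia, which was lower (all genes 3.98%). It had 2470, 1926 and 2750 in NTC, 1964, 1936 and 1499 with sg1 and 908, 742 and 681 with sg2, so that sg1 overlapped with NTC (log2 fold change -1.0 ± 0.15 SE, limma adjusted p = 0.00791). With sg2 limma called 3 of the 40 (all genes 8.76%). CA12 was again lower, and GADD45B, a stress-response gene, and FZD2, a Wnt receptor, were higher, GADD45B at 1085, 1519 and 1595 against 803, 897 and 718 in NTC, and FZD2 at 485, 532 and 491 against 370, 346 and 397. With sg1 none of the 40 was called. The chromatin regulators with members were not called, and ARID1A shows the spread: it had 386, 416 and 861 in NTC, 726, 691 and 681 with sg1, and 668, 398 and 351 with sg2.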

How the data were processed

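The summit lists deposited by the authors, 1 per MeRIP-seq condition, give a position and a -log10 score per summit; the labels leave unsaid whether it comes from a p or a q value. Their lowest scores were 1.31 (NTC) and 1.30 (KD). Per the submitters' processing notes the tools were MACS2, STAR, HTSeq, DESeq2, cutadapt and FastQC 0.11.8 and the build hg38; roles and settings are not stated there. The RNA-seq table deposited by the authors holds a normalized signal, gene counts divided by a factor per library: 100% of values above 0 were whole multiples of a step within 0.1 read, which gave back the reads, less surely for NTC-2, whose step is close to 1.

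Members, gene lists and tests were chosen with earlier results of these data known. Summits were placed in RefSeq gene spans. Genes with a value of 10 or more in at least 3 libraries were tested with limma 3.58.1 (R 4.3.3) on log2(value + 1), all 3 groups in 1 fit without covariates, with Benjamini-Hochberg adjustment over all genes and a threshold of 0.05. The planned edgeR test needs counts and became an alternative. The log2(value + 1) scale understates changes of low genes. edgeR 4.0.16 on the recovered reads called 27 genes for sg1, 1583 for sg2 and 685 for the mean of the guides. DESeq2 1.42.0, other filters, thresholds, distances and left-out libraries were alternatives. The scripts were tested on simulated data.

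Replicate numbers come from the sample titles. Deviations from the group means were correlated between sg1 and sg2 libraries of the same number (0.156 to 0.258), and not between NTC and KO libraries (-0.131 to 0.020), so the numbers were taken to pair sg1 with sg2 and not with NTC. The labels do not say whether libraries of a group are separate cultures, so p-values measure the spread between libraries, which may be technical. The use of strand in counting is not stated, so overlapping and antisense genes cannot be told apart.

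Genes were named by rule: the 12 hosts of the highest NTC scores, the 10 hosts with most members, 3 summits on each side of each limit, up to 6 rises and 6 falls in the mean of both guides past the threshold with no overlap between KO and NTC, and up to 4 hosts per list; CDYL and SNX33 were named for their sequence. Items withheld from the text are not reported here.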

Additional observations from a re-analysis of the deposited data

Results flagged for a closer look

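The following named host genes differed between the guides, each by the test of sg2 minus sg1 in the limma fit (adjusted p below 0.05). Values are log2 differences, and no cause was tested. Lower with sg2 than with sg1 were SPRED3 (-1.40), KDM6B (-1.50), CELSR1 (-1.36), IGF1R (-1.31), H6PD (-1.28), KLF4 (-1.27), CA12 (-1.21), NOTCH1 (-1.10), VWA1 (-1.01), SOX4 (-0.97), ATXN1 (-0.80), CEBPD (-0.80), SMAD3 (-0.78), PAG1 (-0.67), ZNF629 (-0.62) and ANKMY1 (-0.59). Higher with sg2 were CGRRF1 (1.28), GADD45B (0.83), PLEKHF1 (0.65), HS3ST3B1 (0.58), FZD2 (0.43) and AEN (0.42).

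Over all 15965 genes tested 4758 differed between the guides (29.8%), so such a difference was common among all genes. Of the 22 genes above, 22 were called without sg2-1 (all genes 63.2%), 5 without sg1-3 (1.07%) and 4 without sg2-3 (0.613%). The number was 0 without sg1-1 (0.46%), without sg1-2 (0.108%) or without sg2-2 (0.139%). In those last 3 fits limma called 72, 17 and 22 of all genes. edgeR called 16 of the 22 (all genes 27.4%) and DESeq2 21 (35.9%). In some of the 22 genes sg2-1 lay among the sg1 values and only sg2-2 and sg2-3 were apart. KLF4 had 1491, 469 and 391 with sg2 against 1418 to 1670 with sg1, and NOTCH1 had 831, 299 and 244 against 797 to 902. In others sg2-1 lay with its group, as in SOX4, with 1308, 1518 and 1302 against 2656 to 2753. Groups of 3 libraries were not otherwise examined for single outlying values.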

How the results depend on the processing

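The number of members moved with the limits: it was 1892 at a score of 10, 253 at 20, 16 at 30 and 212 where the KD score also had to reach 15, and 679 and 825 at 50 and 200 nt. The median distance was 3 nt at a score of 30. The share in a single coding gene, 90.2%, was 97.5% in any gene span and 93.8% at a score of 30.

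Counts of called hosts were unstable, and are given with the share of all genes called in brackets. In the fit with no filter that share is over 38616 genes, most of which fail the filter on low values. Of the 667 hosts in that fit 664 pass it, so the count and the share there are not over like genes. With sg1 (0) they were 71 by DESeq2 (13.9%) and 215 with only the groups compared (38.6%). They were 34 with the replicate block in sg1 and sg2 only (7.5%) and 251 without sg1-3 and sg2-1 (41.3%, chosen after seeing the data). Leaving out a library each, they ran from 0 to 252 (without sg2-1, 41%). With sg2 (75) they were 49 with no filter (2.26%), 124 by DESeq2 (16.5%), 36 with only the groups compared (4.58%), 354 without sg1-3 and sg2-1 (52.1%), and 19 (without NTC-1, 2.26%) to 321 (without sg2-1, 45.5%) leaving out a library. In the mean of both guides (30) they were 16 with no filter (0.87%), 80 by DESeq2 (9.96%) and 33 by edgeR (4.29%). They were 190 without sg1-3 and sg2-1 (27.2%). Leaving out a library, they ran from 1 (without NTC-1, 0.189%) to 170 (without sg2-1, 22%). At a score of 30 only 15 hosts were tested, of which sg2 gave 2 calls (8.76%) and the mean of both guides 1 (3.98%). With the replicate number as a block over all groups the counts were 0 (0%), 51 (6.32%) and 15 (1.82%), and with the pairing of sg1 with sg2 only 34, 98 (11.4%) and 36 (4.7%).

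Over 16 alternatives, calls for the mean of both guides held in 16 for SOX4, 15 for KLF9 and VWA1, 14 for KANK1, PUS1, H6PD and CA12, 13 for CLMP, AEN and CEBPD, 11 for LRRC61, 7 for PEX11A and SPSB1 and 6 for HS3ST3B1. The fit with only the groups compared is the full fit for the mean of both guides. Other sequence windows were not run, since no genome was used here. MeRIP-seq depth is unknown and each condition has 1 pull-down, which limits all statements on missing summits.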

Other observations

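Long shifts were not evenly spread along the chromosome, a feature noticed in the histogram of distances and chosen after it was seen. In 40 members the KD summit lay 71 to 100 nt towards higher coordinates, against 28 at 41 to 70 nt, whereas towards lower coordinates the numbers were 21 and 59. Split by the strand of the host, the 4 numbers in that order were 19, 12, 8 and 22 for 337 members in plus-strand genes, and 11, 11, 9 and 19 for 269 in minus-strand genes. The 40 members lay in 35 host genes, with a median score of 17.5 in NTC and 9.22 in KD. No test was run.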
